A study of Mus musculus with 8 samples.

Results

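The guanylate binding proteins (GBPs) were examined in RNA sequencing libraries of mouse calvarial osteoblastic cells. The members were the 7 genes listed by symbol as Gbp2, Gbp3, Gbp4, Gbp5, Gbp6, Gbp7 and Gbp9, out of 24421 genes in the tables. They were chosen by family name, with earlier results of these data known. The cells were isolated from the skull bones of newborn WT or Def6-/- mice on a C57BL/6 background and were sequenced at day 0 or on day 12 of culture in osteogenic medium, which holds ascorbic acid and β-glycerophosphate. The 4 groups were therefore WT at day 0, WT at day 12, Def6-/- at day 0 and Def6-/- at day 12, each with 2 libraries. The Def6 deletion is carried by every cell of the mouse, the primary cultures were not sorted before sequencing as far as the labels say, and the labels do not say whether the 2 libraries of a group came from separate animals or cultures, though the study calls its replicates biological. The p-values measure only the spread between these libraries. With 2 libraries against 2, an exact permutation test cannot give a two-sided p below 0.333, so tests came from a fit that shares the spread across genes.

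GBPs are large GTPases related to dynamin. Their genes are switched on by interferon gamma and, more weakly, by type I interferons, through DNA elements that include gamma-activated sites (GAS) and interferon-stimulated response elements (ISRE), and IRF1 is among the factors that act on them. The proteins assemble on the membranes of bacteria and of vacuoles that hold parasites, are best known from macrophages, and are a common readout of interferon signaling in other cells. Gbp2 and Gbp5 carry a lipid anchor at their C-terminus, Gbp5 is linked to inflammasome assembly, and Gbp7 is linked to oxidative defense and autophagy in phagocytes.

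The members lie in 2 clusters of similar copies. In GENCODE M21 (GRCm38, the build of mm10), the plus strand of chromosome 3 holds Gbp5 (142493978 to 142522344), Gbp7 (142530342 to 142550149), Gbp3 (142560026 to 142573209) and Gbp2 (142620602 to 142638008). The minus strand of chromosome 5 holds Gbp9 (105077630 to 105139539), Gbp4 (105115767 to 105139586) and Gbp6 (105270702 to 105293698). All 7 are annotated as protein-coding genes.

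The 250 bases before the start site are shown for the chromosome 3 members, since the ISRE is a sequence through which interferon reaches these genes. RefSeq windows (GRCm38.p6) were at hand for 4 of the 7 members, and Gbp4, Gbp6 and Gbp9 had none. The letters TTTCNNTTTC, the core of the ISRE as read on the gene's strand, are in capitals, and they read GAAANNGAAA on the opposite strand. All lines run 5′ to 3′ on the plus strand.
Gbp3, chr3:142559794-142560043: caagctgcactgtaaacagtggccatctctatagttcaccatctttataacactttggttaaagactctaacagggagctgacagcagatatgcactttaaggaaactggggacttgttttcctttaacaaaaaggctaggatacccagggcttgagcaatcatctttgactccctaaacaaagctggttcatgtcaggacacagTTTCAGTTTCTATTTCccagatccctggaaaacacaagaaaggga
Gbp2, chr3:142620413-142620662: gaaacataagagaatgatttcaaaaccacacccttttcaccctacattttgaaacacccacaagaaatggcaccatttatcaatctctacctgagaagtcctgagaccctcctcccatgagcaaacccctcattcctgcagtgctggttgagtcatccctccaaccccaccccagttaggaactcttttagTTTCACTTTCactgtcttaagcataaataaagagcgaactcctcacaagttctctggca
Gbp5, chr3:142496684-142496933: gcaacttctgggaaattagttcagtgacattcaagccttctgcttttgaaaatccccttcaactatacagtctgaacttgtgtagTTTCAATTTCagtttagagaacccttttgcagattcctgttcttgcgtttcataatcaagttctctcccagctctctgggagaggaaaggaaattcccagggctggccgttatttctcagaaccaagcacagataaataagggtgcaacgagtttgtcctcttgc
Gbp7, chr3:142530086-142530335: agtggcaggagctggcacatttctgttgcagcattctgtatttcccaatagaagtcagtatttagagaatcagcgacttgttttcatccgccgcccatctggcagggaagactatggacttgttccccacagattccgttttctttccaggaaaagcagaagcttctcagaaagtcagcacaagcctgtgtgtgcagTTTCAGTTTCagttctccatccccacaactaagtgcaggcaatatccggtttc

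All 4 windows hold the ISRE core on at least 1 strand. It begins 59 bases before the start site of Gbp2, 53 before that of Gbp7 and 165 before that of Gbp5. These are RefSeq start sites, and those of Gbp2, Gbp3 and Gbp5 lie inside the GENCODE genes given above. The whole window of Gbp5 lies inside its GENCODE gene, and the core of Gbp2 lies after the GENCODE start. Gbp3 has 2 overlapping matches, which begin 45 and 39 bases before the RefSeq start site, and none in the window of its second annotated start site. Of all 32851 RefSeq windows of this length, searched on both strands, 978 (2.98%) hold the core, as do 2.54% of the windows of the genes tested here. The core of the GAS, TTCNNNGAA, which reads the same on both strands, has 2 matches each in the windows of Gbp5 and Gbp7 and none in those of Gbp2 and Gbp3, against 7.02% of all windows with at least 1. Gbp2b, a neighbor on chromosome 3 that is no member, also holds the ISRE core, 137 bases before its start site, and had 0 reads in 7 of the 8 libraries and 2 reads in Def6-/- day 12 replicate 2. A match describes these letters only and is no measure of binding.

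**Figure D1:**
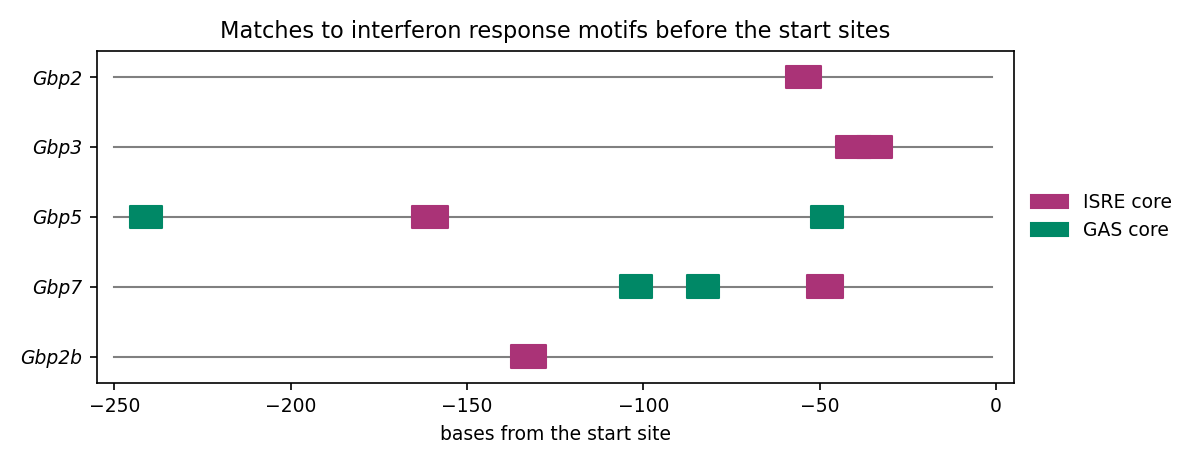
Position of ISRE cores (magenta) and GAS cores (green) in the 250 bases before the start sites of 4 GBP genes and of Gbp2b. The x axis is the distance from the RefSeq start site in bases, and the first start site is used for Gbp3. ISRE cores lie within the last 60 bases in Gbp2, Gbp3 and Gbp7, and GAS cores are present in Gbp5 and Gbp7.

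Because the copies are similar, reads can be split between them or dropped. Over the aligned coding sequence, Gbp4, Gbp6 and Gbp9 were 89.7% to 90.9% identical to each other, Gbp3 was 78.5% identical to Gbp7, and Gbp2 was 63.3% to 68.7% identical to the other members. Of all stretches of 50 bases in its longest coding transcript, Gbp3 shared 4.79% with another gene, Gbp2 2.07% and Gbp5 0.898%. Gbp4 shared 12.8%, Gbp7 12.9% and Gbp9 9.56%. Gbp6 shared 90.2%, all of it with Gm43302, a gene model that overlaps it on the same strand (chromosome 5, 105214907 to 105293695). The values of Gbp6 are therefore uncertain if the authors' annotation held both models. Most of the shared stretches of Gbp7 belong to the pseudogene Gm43802 inside Gbp7. Gbp4 and Gbp9 also overlap each other and Gbp8, in 61 and 60 exon bases. The read length and the annotation are not given in the sources used here, and reads that HTSeq set aside as not uniquely aligned made up 21.4% to 34.9% of a library.

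The libraries had 2414856 to 3482836 reads on genes. Def6 had 112 to 186 reads in each WT library and 0 to 2 reads in each Def6-/- library, so the labels match the deleted gene. All 10 osteoblast markers were detected and 6 rose over the days in each genotype at an adjusted limma p under 0.05. Of all genes tested, 12.7% in WT and 12% in Def6-/- cells were called higher. Bglap, Dmp1 and Phex were tested only because of their levels at day 12. At day 12 all 10 osteoblast markers had a positive log2 fold change in Def6-/- against WT cells, with a median of 0.42. Among them, only the osteocalcin gene Bglap was called higher (1.13), as were 0.81% of all genes tested. Of 9 lymphoid markers, 7 had 0 reads in all libraries. Klrb1c had 1 read in Def6-/- day 12 replicate 1 and 0 elsewhere. Il7r had 0 and 3 reads in WT and 3 and 5 in Def6-/- cells at day 0. At day 12 Il7r had 10 and 4 reads in WT and 14 and 5 in Def6-/- cells, and it was not called in any comparison. Of 8 endothelial markers, Emcn and Tie1 had 0 reads and 6 were detected. Their summed level went from 9.61 to 18.7 normalized CPM in WT and from 10.8 to 18.4 in Def6-/- cells. Tek was called over the days in WT cells but was tested only because of its level at day 12. The macrophage markers were not at 0 and are given beside the members' sum. In such bulk samples, fewer cells of a type and less RNA per cell cannot be told apart.

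Gbp3 and Gbp2 held most of the members' reads. Levels are normalized CPM, that is CPM relative to the reads on genes, scaled with TMM factors. Gbp3 was at 1.97 and 3.53 normalized CPM in WT cells at day 0, 38.5 and 63.2 in WT cells at day 12, 2.63 and 2.04 in Def6-/- cells at the start, and 20.5 and 14.9 in Def6-/- cells on day 12. Both WT libraries at day 12 lay above all others, and both Def6-/- libraries at day 12 lay above all 4 libraries at day 0.

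Gbp2 was at 13.8 and 14.5 normalized CPM in WT cells and 15.4 and 19.1 in Def6-/- cells at day 0. At day 12 it was at 33.0 and 33.5 in WT cells and at 21.8 and 32.02 in Def6-/- cells. The groups at day 12 did not overlap, but the higher Def6-/- library lay close to the WT libraries.

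Gbp7 was at 2.37 and 6.01 normalized CPM in WT cells and 1.13 and 5.79 in Def6-/- cells at day 0. On day 12 it was at 17.5 and 23.9 in WT cells and at 18.1 and 17.5 in Def6-/- cells. The 2 genotypes overlapped at both days. The libraries with the lower values at day 0 were replicate 1 in each genotype.

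Gbp5 had 1 and 0 reads in WT cells and 0 and 1 reads in Def6-/- cells at day 0. At day 12 it had 21 and 9 reads in WT cells (6.03 and 3.77 normalized CPM) and 4 and 6 reads in Def6-/- cells (1.64 and 2.56 normalized CPM). The 2 genotypes did not overlap at day 12.

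The chromosome 5 members had few reads. At day 0, Gbp9 had 1 and 3 reads in WT cells and 0 and 3 in Def6-/- cells. On day 12 it had 17 and 9 reads in WT cells (4.88 and 3.77 normalized CPM) and 4 and 3 in Def6-/- cells (1.64 and 1.28 normalized CPM). Gbp6 started from 4 and 1 reads in WT cells and 1 and 5 in Def6-/- cells, and on day 12 it had 20 and 25 reads in WT cells (5.74 and 10.5 normalized CPM) and 15 in each Def6-/- library (6.16 and 6.40 normalized CPM). Gbp9 did not overlap between the genotypes at day 12, whereas Gbp6 did. Gbp4 was seen in WT cells at day 12 alone, with 3 and 1 reads, and had 0 reads in the other 6 libraries, which allows up to 3 reads in each. It fell below the filter on low values and no fold is given for it.

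**Figure D2:**
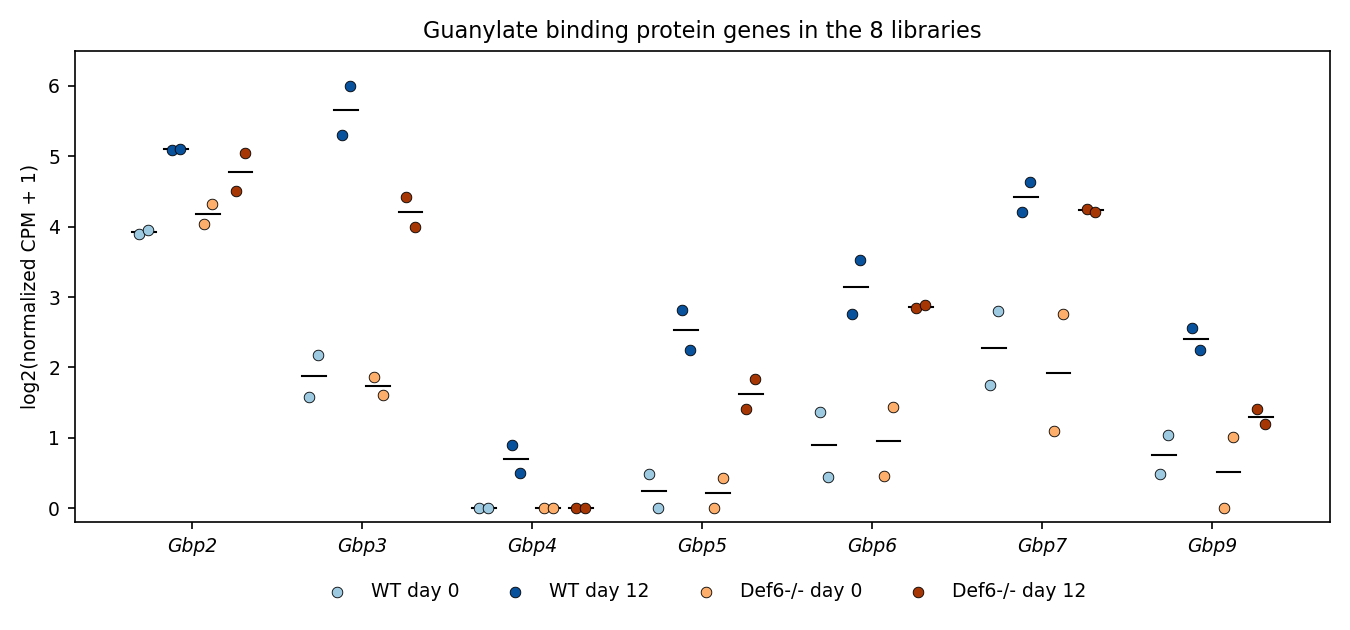
Level of each GBP gene in the 8 libraries, as log2(normalized CPM + 1), colored by genotype and day. Each point is a library and each bar the mean of the 2 libraries of a group; at day 12 the Gbp3, Gbp5 and Gbp9 libraries of WT lie above those of Def6-/-, and Gbp4 is at 0 outside WT day 12.

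Levels of different members were compared per kilobase of coding-transcript exon. In WT cells at day 12, Gbp3 (15.9 ± 5.47 normalized CPM per kilobase, SD, n = 2) and Gbp2 (13.2 ± 0.138) were highest and overlapped. Gbp7 (3.68 ± 0.801) and Gbp6 (3.11 ± 1.28) followed and overlapped too, before Gbp5 (1.60 ± 0.523), Gbp9 (0.974 ± 0.177) and Gbp4 (0.134 ± 0.0657). Gbp5 and Gbp9 did not overlap by this length, but their order is not settled. All annotated exons come to 6637 bases for Gbp5 and 5173 for Gbp9, against 3055 and 4441 in coding transcripts. The place of Gbp6 is uncertain because of the stretches shared with Gm43302. In Def6-/- cells at day 12, Gbp2 came first at 10.7 ± 2.88 per kilobase and Gbp3 second at 5.54 ± 1.23, without overlap. At day 0, Gbp2 stood above all other members, at 5.62 ± 0.187 per kilobase in WT cells and 6.86 ± 1.03 in Def6-/- cells, and no other member was above 1.10 per kilobase in any library.

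The make-up of the family's reads shifted with the days. In WT cells, Gbp3 held 9.62% (exact Clopper-Pearson 95% interval 3.20% to 21.03%) and 13.9% (6.87% to 24.1%) of the members' reads at day 0, and 36.1% (31.2% to 41.2%) and 45.5% (40.0% to 51.0%) at day 12. In Def6-/- cells it held 13.5% (5.59% to 25.8%) and 6.82% (2.54% to 14.3%) at day 0, and 29.4% (22.7% to 36.9%) and 20.0% (14.3% to 26.7%) at day 12. Gbp2 went from 56.9% to 78.8% of the members' reads over the 4 libraries at day 0 to 24.1% to 42.9% over the 4 libraries at day 12. At day 12 the share of Gbp3 was lower in both Def6-/- libraries than in both WT libraries. The intervals cover counting error only.

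**Figure D3:**
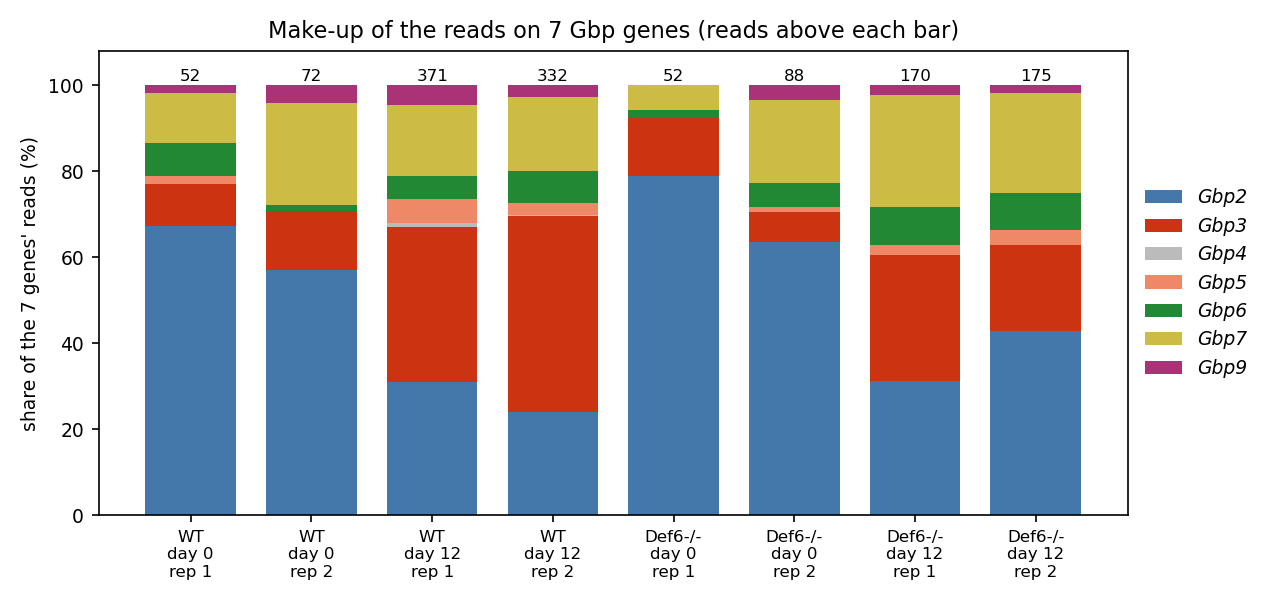
Share of each gene in the reads on the 7 GBP genes, in percent, for each library, with the number of reads above each bar. Gbp2 is the largest part at day 0, and Gbp3 is larger in the WT than in the Def6-/- libraries at day 12.

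GBP genes rose between day 0 and day 12. A gene was tested when its deposited CPM averaged at least 1 in some group. Gbp2 and Gbp7 reached this in all 4 groups, Gbp3 and Gbp6 only in the 2 groups at day 12, Gbp5 and Gbp9 only in WT cells at day 12, and Gbp4 in none. Members that passed only where they were high had to differ, so nothing is read from how many of those tested were called. In WT cells 6 of the 7 members rose at a Benjamini-Hochberg adjusted p under 0.05 (limma over 12348 genes), where 12.7% of all genes tested were called higher, and the same count was called without the filter. Gbp3 rose by 3.78 on the log2(normalized CPM + 1) scale (standard error 0.36, adjusted p = 0.00027), a scale on which changes of genes with few reads come out too small. By reads alone Gbp3 rose 16.6-fold (95% counting interval 9.92 to 30.1) and Gbp5, from 1 read to 30, 26.3-fold (4.37 to 1072), so the order of these genes is not settled. Gbp5 rose by 2.29 (standard error 0.42, adjusted p = 0.00613) and Gbp6 by 2.23 (standard error 0.49, adjusted p = 0.014). The changes of Gbp7, Gbp9 and Gbp2 were 2.14, 1.64 and 1.18, with adjusted limma p-values of 0.0277, 0.0371 and 0.0141. In all 7 members both libraries at day 12 lay above both at day 0, as did 29.3% of the genes tested. Nothing is read from this count either, since Gbp4 was not tested and Gbp3, Gbp5, Gbp6 and Gbp9 passed the filter only at day 12. Without WT day 12 replicate 1 or without replicate 2, 2 members were called in limma.

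In Def6-/- cells, 3 of the 7 members rose by the same test, where 12% of all genes tested were called higher. These were Gbp3 (log2 fold change 2.48, standard error 0.36, adjusted p = 0.00202), Gbp7 (2.30, standard error 0.55, adjusted p = 0.0213) and Gbp6 (1.92, standard error 0.49, adjusted p = 0.028). Gbp5 had a log2 fold change of 1.41 (adjusted p = 0.0524), Gbp9 of 0.79 (adjusted p = 0.292) and Gbp2 of 0.59 (adjusted p = 0.158), which did not pass. In 6 of the 7 members, all but Gbp4, both libraries at day 12 lay above both at day 0, as did 35.2% of the genes tested. Because Gbp3, Gbp5, Gbp6 and Gbp9 passed the filter only in groups at day 12, nothing is read from this count. Without Def6-/- day 0 replicate 1, or without either Def6-/- library at day 12, 1 member was called.

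At day 0 the genotypes were not told apart in any member. None of the 6 members tested passed the criterion used between genotypes, an unadjusted limma p under 0.05 with a change of more than 1.2-fold, where 0.988% of all genes tested were called higher and 1.31% lower in Def6-/- cells. Their log2 fold changes lay between -0.35 (Gbp7) and 0.26 (Gbp2), and no unadjusted limma p was under 0.336. No member passed the adjustment over all genes there, which 0.0081% of the genes passed. Gbp2 was higher in both Def6-/- libraries than in both WT libraries, as were 10.9% of the genes tested. Without Def6-/- day 0 replicate 2, 1 member was called, Gbp7, at a log2 fold change of -1.19.

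At day 12, Gbp3 and Gbp9 were called lower in Def6-/- than in WT cells before adjustment over all genes. These 2 of the 7 members passed the criterion between genotypes, where 0.591% of all genes tested were called lower and 0.81% higher, and no member passed the Benjamini-Hochberg adjustment, which 0.0081% of the genes passed as lower and 0% as higher. The mean level of Gbp3 in normalized CPM was 50.8 ± 17.5 for the WT and 17.7 ± 3.95 for the Def6-/- libraries (SD, n = 2). Its log2 fold change was -1.44 (standard error 0.36), with an unadjusted limma p of 0.00316 and an adjusted p of 1. By reads alone, WT cells had 285 reads on Gbp3 and Def6-/- cells 85, a ratio of 2.76 per read on genes (95% counting interval 2.16 to 3.56). The level of Gbp9 was 4.32 ± 0.785 in WT cells against 1.46 ± 0.256 in Def6-/- cells. Its log2 fold change was -1.11 (standard error 0.45), at an unadjusted limma p of 0.0382 and an adjusted p of 1. Gbp9 rests on 26 and 7 reads and was tested only because of its level in WT cells at day 12. It was also called without the filter, at an unadjusted limma p of 0.0209. That fit called 459 genes in place of 173, with Gbp4 and Gbp5 among those added. The call of Gbp9 was lost in 7 of 17 alternatives, among them edgeR (unadjusted p of 0.0527) and DESeq2 (unadjusted p of 0.162). Gbp3 passed the criterion in all 17 alternatives.

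The other members tested at day 12 were not called. Gbp5 had a log2 fold change of -0.92 (standard error 0.42, unadjusted limma p of 0.0584) and was called in 3 of 17 alternatives, without the filter, with only the groups compared and without WT day 12 replicate 2. The values of the others were -0.32 for Gbp2, -0.27 for Gbp6 and -0.19 for Gbp7, with unadjusted limma p-values of 0.243 to 0.735. Each Def6-/- library was below each WT library in 5 of the 7 members, Gbp2, Gbp3, Gbp4, Gbp5 and Gbp9, as in 15.9% of the genes tested. Gbp4 is not among the genes tested, and Gbp5 and Gbp9 passed the filter only in WT cells at day 12. Nothing is therefore read from this count. The 95% counting interval of the ratio of WT to Def6-/- reads was 1.17 to 5.66 for Gbp5, 0.998 to 1.58 for Gbp2, 0.857 to 1.53 for Gbp7 and 0.760 to 2.03 for Gbp6.

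**Figure D4:**
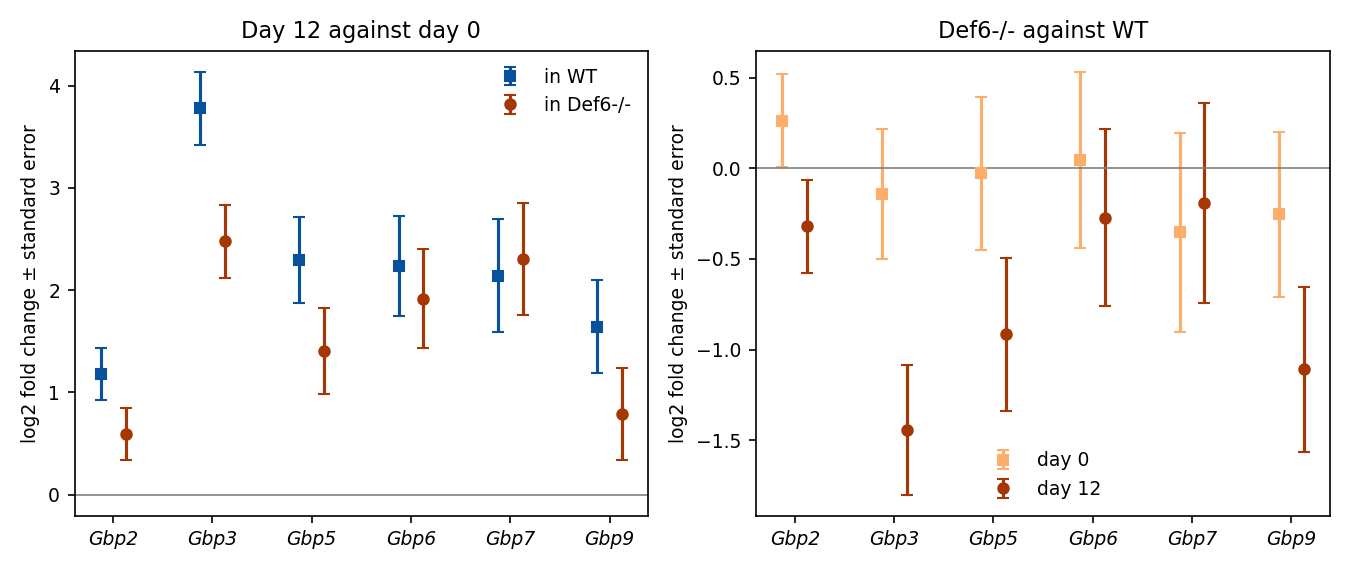
Log2 fold changes of the 6 GBP genes tested, with standard errors from limma. The left panel gives day 12 against day 0 in WT (blue squares) and Def6-/- cells (brown circles), and the right panel gives Def6-/- against WT at day 0 (orange squares) and day 12 (brown circles); at day 12 Gbp3 lies at -1.44 and Gbp9 at -1.11.

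Whether the rise over the days differed between genotypes was tested with the interaction of genotype and day. Gbp3 was the 1 member called, where 0.421% of all genes tested were called negative and 0.705% positive, with an interaction of -1.30 (standard error 0.51, unadjusted limma p of 0.0311, adjusted p of 0.9997). No gene passed the adjustment for the interaction (0%). The interaction was -0.89 for Gbp5, -0.86 for Gbp9, -0.58 for Gbp2, -0.32 for Gbp6 and 0.16 for Gbp7, with unadjusted limma p-values of 0.144 to 0.839. The call of Gbp3 was lost in 7 of 16 alternatives, among them a pseudocount of 0.1 (unadjusted p of 0.0544), edgeR (0.0942) and DESeq2 (0.121).

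A sum over the members does not depend on how reads were split among them, though it misses reads that were dropped. The 7 members summed to 20.5 and 25.4 normalized CPM in WT cells and 19.6 and 30.0 in Def6-/- cells at day 0. At day 12 they summed to 106 and 139 in WT cells and 69.8 and 74.7 in Def6-/- cells. The sum at day 12 was 1.70 times as high in WT as in Def6-/- cells, without overlap, and it rose 5.34-fold over the days in WT and 2.92-fold in Def6-/- cells. The chromosome 3 and chromosome 5 members were each higher in WT cells at day 12, 1.70-fold and 1.69-fold. Without Gbp3, the sum at day 12 was 71.9 ± 5.49 in WT and 54.5 ± 7.43 in Def6-/- cells, a ratio of 1.32.

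Macrophage markers moved with the days as well. The 15 markers used, among them Lyz2, Cd68, C1qa and Mpeg1, summed to 209 to 452 normalized CPM over the 4 libraries at day 0. At day 12 they summed to 6472 and 3301 in WT cells and to 4047 and 3588 in Def6-/- cells. Of all 16 markers in the list, 14 rose in WT cells and 13 in Def6-/- cells at an adjusted limma p under 0.05. Cx3cr1 went the other way, with log2 fold changes of -0.79 in WT and -0.98 in Def6-/- cells, and was not called. Of all genes tested, 12.7% and 12% were called higher. None of the 16 markers was called between genotypes at day 12, where the sums overlapped. All 16 had a negative log2 fold change in Def6-/- against WT cells, with a median of -0.32. The largest, -0.80, was that of Ptprc, which holds values that are not whole reads and is not in the sums. The mean marker sum was 1.28 times as high in WT as in Def6-/- cells. This ratio rests on WT replicate 1, since WT replicate 2, at 3301, lay below both Def6-/- libraries. The GBP sum without Gbp3 had a ratio of 1.32. Gbp3 averaged 50.8 against 17.7 normalized CPM, and its ratio by reads alone, without TMM factors, was 2.76. Lyz2 alone averaged 2987 of a mean marker sum of 4887 in WT and 2319 of 3817 in Def6-/- cells at day 12. Of the WT libraries at day 12, replicate 1 had the higher marker sum. Gbp4, Gbp5 and Gbp9 were higher in that library, whereas Gbp2, Gbp3, Gbp6, Gbp7 and the GBP sum were higher in replicate 2. The part of macrophages in the levels of the GBP genes, over the days or between genotypes, was not tested.

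**Figure D5:**
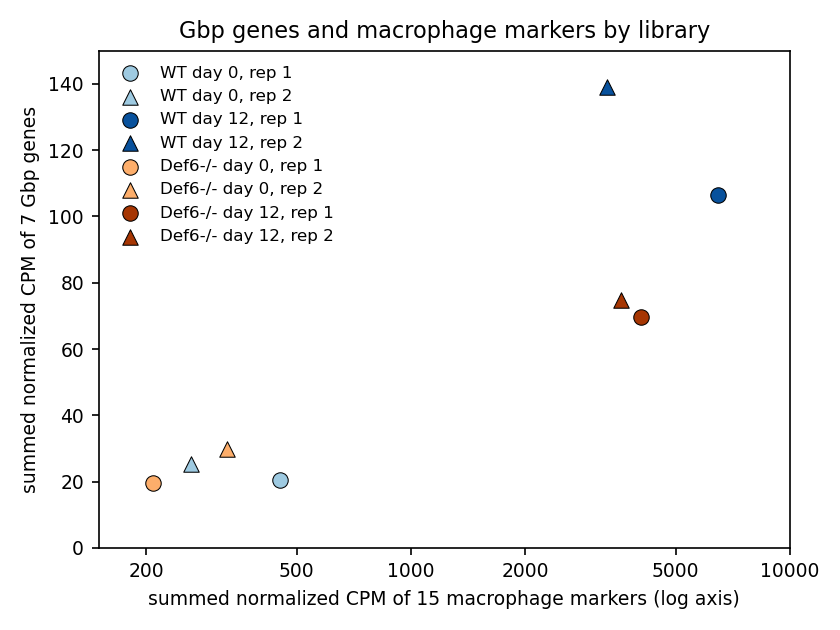
Summed normalized CPM of the 7 GBP genes (y axis) against that of 15 macrophage markers (x axis, log scale) in each library. Both sums are higher at day 12 than at day 0, and among the day 12 libraries the GBP sum is highest, at 139, where the marker sum is lowest, at 3301.

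Genes upstream of the GBPs were read from lists by role. The 11 ligand genes, which include interferon genes and the cytokine genes Il27 and Il12b, were all below the filter, with Ifng at 0 reads in all 8 libraries, which allows up to 3 reads in each, and Ifnb1 at 2 reads in Def6-/- day 12 replicate 1 and 0 elsewhere. None of the 7 receptor and kinase genes was called in any comparison. Ifnar1, a subunit of the type I interferon receptor, had a log2 fold change of 0.03 at day 12 between genotypes, and Ifngr1, a subunit of the interferon gamma receptor, of 0.05.

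Of 10 interferon transcription factor genes tested, 3 fell below WT in Def6-/- cells on day 12 by the unadjusted criterion, as did 0.591% of all genes tested. None did by the adjusted criterion, and the list median was -0.50. The 3 genes were Irf7, an amplifier of type I interferon responses (log2 fold change -1.43, unadjusted limma p of 0.0136), Nlrc5, a transactivator of MHC class I genes (-0.96, p of 0.0397), and Irf9, the DNA-binding part of the ISRE complex (-0.65, p of 0.0443). Irf1 had a log2 fold change of -0.38 and was not called (unadjusted limma p of 0.154). Irf7 was also called lower at day 0, by 1.30 on the log2 scale, and Irf8, a factor of myeloid cells, was called higher there (0.75), a gene named after its value was seen. Over the days, 7 of the 10 rose in WT and 5 in Def6-/- cells at an adjusted limma p under 0.05, where 12.7% and 12% of all genes tested were called higher. Irf8 passed the filter in all groups but WT at day 0, and Irf7 and Nlrc5 in all but Def6-/- at day 0. Of 7 feedback inhibitor genes none was called between genotypes, and 2, Usp18 and Ptpn6, rose over the days in each genotype. Usp18 was tested only because of its level at day 12.

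The immunity-related GTPases act beside the GBPs on parasite vacuoles. Of 7 genes tested, 4 were called lower in Def6-/- cells at day 12 by the unadjusted criterion, as were 0.591% of all genes tested. None was called by the adjusted criterion, and Gm12250 was tested only because of its level in WT cells at day 12. Irgm1, Irgm2 and Gm12250 were not called, at unadjusted limma p-values of 0.0503 to 0.213, and Irgm1 was called lower at day 0 (-0.75). Gm4951 changed by -1.05, Ifi47 by -0.93, Iigp1 by -0.84 and Igtp by -0.69, with unadjusted limma p-values of 0.0173 to 0.0497 and adjusted p-values of 1. All 7 rose in WT cells and 6 in Def6-/- cells at an adjusted limma p under 0.05, where 12.7% and 12% of all genes tested were called higher. Iigp1, Ifi47 and Gm4951 passed the filter only at day 12, as did Gm12250 in WT cells alone. Nothing is therefore read from these counts over the days. At day 12 the 9 genes of the list summed to 251 ± 51.0 normalized CPM in WT and 147 ± 18.3 in Def6-/- cells (SD, n = 2). Ifi47 had an interaction of -1.25 (unadjusted limma p of 0.0217).

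Lists of cell functions that GBP proteins rely on held no call between genotypes at either day. None of the 10 genes of Atg8 conjugation, the 6 of prenylation and the 8 tested of the inflammasome and pyroptosis was called, with list medians of 0.03, -0.05 and -0.09 at day 12. Icmt, which methylates prenylated proteins, was called for the interaction (-0.59, unadjusted limma p of 0.0353). Over the days, Casp1, Casp4 and Pycard, which form and act in inflammasomes, rose in both genotypes at an adjusted limma p under 0.05. They passed the filter only in the groups at day 12, so nothing is read from these calls. Of all genes tested, 12.7% in WT and 12% in Def6-/- cells were called higher over the days. Of 4 other dynamin-like GTPase genes tested, none was called between genotypes at day 12, and Mx2, an interferon-induced antiviral GTPase, had a log2 fold change of -0.02. Atl1, which shapes the endoplasmic reticulum, was called lower at day 0 (-0.91). Mx1, an antiviral GTPase of the same list, was below the filter and was named after its values were seen, with 8 and 5 reads in WT and 1 and 1 in Def6-/- cells at day 12.

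The genes whose pattern over the 8 libraries was most like the mean of the 6 members tested were Sp110, Smoc1, Lgals3bp, Btbd3, Adrb1, Cxcl16, Themis2 and Ifit2. Likeness was the root mean square difference of log2(normalized CPM + 1) values after each gene was centered on its own mean, and it was 0.20 to 0.25 for these 8 genes. By the same measure, the gene nearest to Gbp3 was Rtp4 (0.22), that nearest to Gbp9 was Irf9 (0.25) and that nearest to Gbp2 was Pxylp1 (0.14). Gbp5 was nearest to Rgs18 (0.22), Gbp6 to Cmbl (0.21) and Gbp7 to Spock3 (0.17). Rtp4 was at 54.8 normalized CPM in WT and 20.6 in Def6-/- cells at day 12, and at 3.54 and 3.58 at day 0.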

How the data were processed

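Poly-A RNA libraries of WT and Def6-/- calvarial cells at day 0 and day 12 (n = 2 per group) had been sequenced on an Illumina instrument. Per the submitters' notes and the study's methods, the authors trimmed reads with fastp, used HISAT2 for alignment to mm10 and HTSeq for counting, and deposited CPM from edgeR; versions and the annotation are not given in the sources used here. The deposited CPM are relative to all reads that HTSeq handled, those outside genes included, of which 28.8% to 35.3% lay on genes.

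Whole reads were recovered from the value of 1 read for 99.959% of 114821 positive values, within 0.05 reads. CPM were rescaled to reads on genes with TMM factors from the recovered reads of the genes tested. limma 3.58.1 (lmFit, eBayes with trend) was fitted to log2(normalized CPM + 1) over all 8 libraries and 4 group means, for the 12348 genes whose deposited CPM averaged 1 or more in some group. Calls were an unadjusted p under 0.05 and more than 1.2-fold between genotypes and for the interaction, and a Benjamini-Hochberg adjusted p under 0.05 between days. Alternatives on recovered reads used DESeq2 1.42.0 and the quasi-likelihood test of edgeR 4.0.16, in R 4.3.3. Others were a pseudocount of 0.1, no filter, CPM as deposited, a replicate block, only the groups compared, and each library left out. Sequence work used Biopython 1.88 in Python 3.11.15, with coordinates counted from 1.

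The members and gene lists were chosen with earlier results of these data known. The genes from which TMM factors are taken were settled after call counts under 3 choices had been seen, and the other 2 choices are given as alternatives. Named genes are all members, up to 4 genes of each other list with a call in any comparison, genes that define the pathway, and the nearest genes by pattern. A count of 0 allows up to 3 reads per library.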

Additional observations from a re-analysis of the deposited data

Results flagged for a closer look

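The rise of Gbp3 over 12 days was called smaller in Def6-/- than in WT cells by the unadjusted criterion only. The interaction was -1.30 on the log2(normalized CPM + 1) scale (standard error 0.51, unadjusted limma p of 0.0311, adjusted p of 0.9997). At day 0 Gbp3 had only 5 and 10 reads in WT and 7 and 6 in Def6-/- cells, so the size of each rise depends on the pseudocount. Gbp3 rose by 3.78 in WT and by 2.48 in Def6-/- cells. The interaction was negative in all 16 alternatives, between -1.65 and -0.95, and its unadjusted p ranged from 0.00689 to 0.135. It missed the threshold with a pseudocount of 0.1, in edgeR and in DESeq2, and without WT day 0 replicate 1 (-0.995), WT day 12 replicate 2 (-0.95), Def6-/- day 0 replicate 1 (-1.17) or Def6-/- day 12 replicate 2 (-1.08).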

How the results depend on the processing

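Gbp3 kept its call at day 12 between genotypes in all 17 alternatives, and its rise over the days in both genotypes did so too. The members called at day 12 between genotypes, 2 in the report, were 1 with a pseudocount of 0.1, in edgeR and in DESeq2, 4 without the filter on low values, which adds Gbp4 and Gbp5, 3 with only the groups compared, which adds Gbp5, and 1 to 2 when each replicate was left out. The members called for the interaction, 1 in the report, were 0 with the same pseudocount, in edgeR and in DESeq2, and 2 without the filter, and 0 to 1 when each replicate was left out. Leaving out each replicate gave 0 to 1 members at day 0, 2 to 6 over the days in WT cells and 1 to 4 in Def6-/- cells, and the rise of the chromosome 5 sum in Def6-/- cells, 4.99-fold, ranged from 2.84 to 20.6, the last without Def6-/- day 0 replicate 2. Here a lone library is assumed to vary like the other groups.

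Small differences changed sign when a replicate was left out. The log2 fold change at day 12 then ranged from -0.66 to 0.11 for Gbp6 and from -0.40 to 0.021 for Gbp7. At day 0 it ranged from -0.45 to 0.16 for Gbp3, -0.27 to 0.21 for Gbp5, -0.44 to 0.53 for Gbp6, -1.19 to 0.48 for Gbp7 and -0.76 to 0.25 for Gbp9. The interaction ranged from -0.80 to 0.17 for Gbp6 and from -0.67 to 0.999 for Gbp7. With CPM as deposited, Gbp5 at day 0 was at 0.0068, and the median of all genes at day 0 moved from -0.02 to 0.099. The cause of these changes was not tested.

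TMM factors from the reads of all genes, or from the deposited CPM of all genes, are alternatives chosen after the data were seen, and both gave the same member counts, 2, 0, 6, 3 and 1. With the replicate number as a block the member counts were also 2 at day 12, 0 at day 0, 6 in WT cells, 3 in Def6-/- cells and 1 for the interaction. Same-numbered libraries deviated together with correlations across genes of 0.0369 at day 12, 0.327 at day 0, 0.0881 in WT and 0.152 in Def6-/- cells, and with 2 pairs and no label behind them the numbers are not taken as a pairing. Over all genes tested, the count called at day 12, 173, was 459 without the filter, 554 with only the groups compared in the fit and 85 in DESeq2, and that for the interaction, 139, was 326 without the filter and 45 in DESeq2. With only the groups compared, the count went from 284 to 100 at day 0, from 2261 to 1093 in WT and from 2078 to 3910 in Def6-/- cells. Leaving out each replicate moved these counts, on which the background shares rest, to as many as 458 at day 12, and to 154 to 4581 at day 0, 886 to 5701 in WT, 927 to 4328 in Def6-/- cells and 89 to 3329 for the interaction. The highest counts came without WT day 0 replicate 2, except between genotypes at day 12, where they were 458 without WT day 0 replicate 1 and 452 without replicate 2. The lowest came without WT day 12 replicate 2 for the interaction, without Def6-/- day 0 replicate 1 at day 0 and in Def6-/- cells, and without WT day 12 replicate 1 in WT cells.

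Counts of 0 to 21 reads per library in Gbp4, Gbp5 and Gbp9 limit what can be seen in these genes.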

Other observations

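The values that were not whole reads, 47 in all, belong to 9 genes, which are Acp5, Adgre1, Cd14, Csf1r, Ctsk, Fcgr3, Itgam, Itgb3 and Ptprc. All 9 are genes of macrophages, osteoclasts or other blood cells and none is a GBP gene. In units of 1 read, the deposited value of Csf1r came to 71 and 65 in WT cells at day 0 and to 78.5 and 23.5 at day 12, and that of Adgre1 to 3.5 and 3.6 and to 9.09 and 3.16. Ctsk came to 7.08 and 4.67 in WT cells at day 0 and to 15.53 and 10.86 at day 12. Over the same libraries, Lyz2 went from 624 and 395 reads to 14106 and 4600, and Mpeg1 from 104 and 75 reads to 1712 and 674. Lyz2 and Mpeg1 are named here after their values were seen. Ptprc, the 1 of these 9 genes on the macrophage list, was left out of the summed markers.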
